A study of Homo sapiens with 10 samples.

Results

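The genes described here are a set of 10 grouped as immediate early AP-1 and EGR genes: FOS, FOSB, FOSL1, FOSL2, JUN, JUNB, JUND, EGR1, ATF3 and IER3. They were chosen by name, as the Fos, Jun, ATF and EGR transcription factor genes of the growth factor response together with IER3, and they are 10 of the 20098 protein-coding genes on the numbered chromosomes and X. Each gene was examined over its body plus 50 kb on either side, a window of 101.35 kb for IER3 to 155.44 kb for ATF3. Immediate early genes are transcribed within minutes of a growth factor signal, before any new protein is made. Not every gene of the set need meet that definition, and their transcription was not examined here. The Fos and Jun proteins pair through a leucine zipper as AP-1, which binds the DNA sites TGACTCA and TGAGTCA. The looser pattern TGANTCA, with any middle base, was searched for here. The EGR proteins are zinc finger factors that bind GC-rich sites. Signals from receptors such as EGFR and HER2 reach many immediate early genes through the MAP kinases, which act on the ELK partners of the serum response factor at CArG boxes.

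The cells were SKBR3 and BT474, established human breast cancer lines that carry an amplified ERBB2 gene and make large amounts of its product, the receptor HER2. HER2 was mapped on the chromatin by ChIP-exo, in which an exonuclease trims the precipitated DNA back to the protein. The cells were growing asynchronously, were not starved of serum, and received vehicle (water) or EGF at 100 ng/ml for 3 hours. A single peak list stood for each line and treatment. H3K4me1, a single methyl group on lysine 4 of histone 3 that is found at enhancers and on the flanks of promoters, was mapped by ChIP-seq in 2 replicates of each line. The labels call the H3K4me1 cells asynchronous, whereas the text of the study describes them as EGF-treated, so no effect of EGF on the mark could be measured. The 2 input samples are not analysed here, so a gain or loss of DNA copies in either line cannot be told apart from a difference in the mark.

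H3K4me1 was listed as islands, runs of 200 bp bins enriched for reads. The SKBR3 replicates held 72888 and 70251 islands with 15636057 and 15314195 reads, and the BT474 replicates held 96293 and 89478 islands with 18714089 and 15097245 reads. The HER2 lists held 2596 and 2520 peaks in SKBR3 (vehicle and EGF) and 8559 and 29326 peaks in BT474. Islands covered 97.2% to 100% of ERBB2 in the 4 libraries and 61.8% to 67.5% of the luminal keratin gene KRT8. The other luminal genes were uneven: GATA3 held no island in SKBR3 and was 53.2% to 55.9% covered in BT474, KRT18 was covered 0% to 17.1% and 51.8% to 61.7%, and KRT19 62.5% to 71.0% and 28.4% to 45.4% in that order. Of the hormone receptor genes, PGR was covered 2.40% to 3.54% in SKBR3 and 86.6% to 88.6% in BT474, and ESR1 18.8% to 19.7% and 26.3% to 27.3%. The basal keratin genes KRT5 (38.9% to 70.5%) and KRT14 (83.8%) were marked in SKBR3 and at most 1.91% covered in BT474, while the mesenchymal gene VIM was covered 10.7% to 12.8% in SKBR3 and 23.1% to 44.5% in BT474. The part of these differences in the results that follow was not tested.

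In H3K4me1 island cover, the windows of these genes exceeded the typical gene. The median cover over the 10 windows was 37.4% and 36.7% in the SKBR3 replicates and 29.2% and 26.7% in the BT474 replicates. Over all 20098 protein-coding genes the median was 11.5% and 12.1% in SKBR3, and 12.8% and 12.1% in BT474. In each library 8 or 9 of the 10 genes lay above that median. EGR1 lay below it in all 4 libraries, with JUNB below in SKBR3 replicate 1 and JUND below in both BT474 replicates. The scaled reads given below are the island reads that fall in a window per 1000000 island reads of the library.

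**Figure D1:**
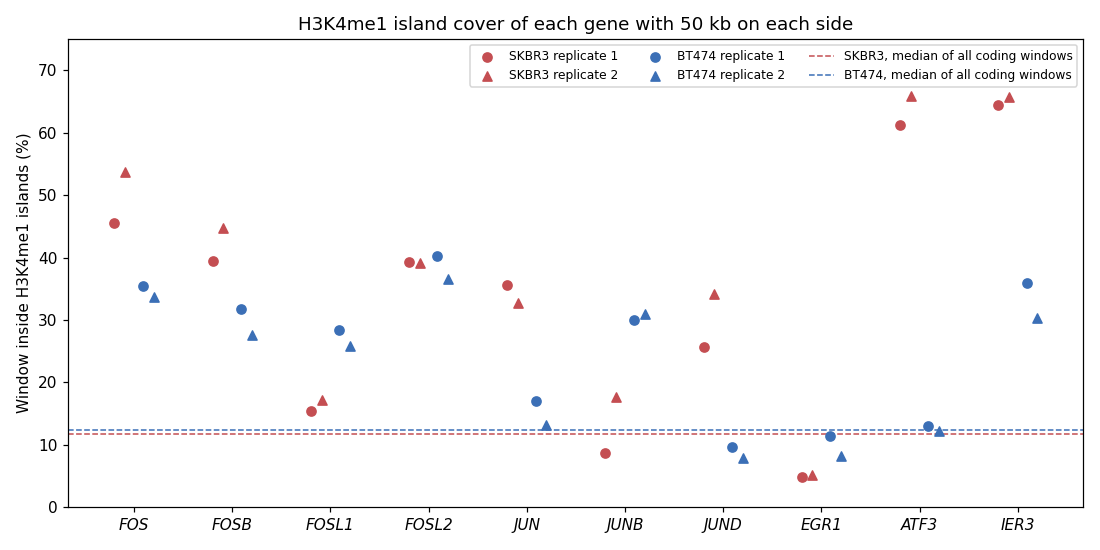
Percent of each gene window inside an H3K4me1 island (y axis) for the 10 genes (x axis), with 1 symbol per library (red for SKBR3, blue for BT474) and dashed lines at the median over all protein-coding genes in each line. ATF3 stands at 61.3% and 65.9% in SKBR3 against 13.0% and 12.2% in BT474, while JUNB stands higher in BT474.

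Promoters for 8 of the 10 genes, all but FOSL1 and IER3, were matched by symbol in RefSeq (GRCh38.p14), 9 promoters in all because ATF3 has 2 entries. The 250 bases before the start were searched on both strands for sequence patterns, with any base allowed at N. These were TGANTCA for AP-1, TGACGTCA for the cyclic AMP response element or CRE, GCGNGGGCG for the EGR proteins, and the CArG box. The last was CGTNTGC, the core of the motif that the study described under HER2 peaks. Over 21537 promoters of 15289 genes these patterns were present in 5.36%, 2.03%, 11.0%, 1.19% and 7.18% in that order. EGR1 and JUND were the 2 of the 8 genes with a match, and no match overlapped another. They are printed 5′ to 3′ with the matches in capitals, beside FOSB, the gene whose start lay in an H3K4me1 island in all 4 libraries and whose promoter held no match. The EGR1 promoter (chr5:138465229-138465478, plus strand) held 1 match to the EGR pattern, GCGCGGGCG, at 198 to 190 bases before the start. It also held 2 CArG boxes at 105 to 96 and 83 to 74 bases. The JUND promoter (chr19:18281623-18281872, minus strand) held a CRE at 200 to 193 bases before the start. The FOSB promoter lies at chr19:45467746-45467995 on the plus strand.
EGR1 promoter: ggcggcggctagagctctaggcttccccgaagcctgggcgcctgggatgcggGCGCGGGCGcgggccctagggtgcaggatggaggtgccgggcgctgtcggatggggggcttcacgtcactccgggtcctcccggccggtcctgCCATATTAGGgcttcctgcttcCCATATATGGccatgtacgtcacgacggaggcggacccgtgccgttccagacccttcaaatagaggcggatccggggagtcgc
JUND promoter: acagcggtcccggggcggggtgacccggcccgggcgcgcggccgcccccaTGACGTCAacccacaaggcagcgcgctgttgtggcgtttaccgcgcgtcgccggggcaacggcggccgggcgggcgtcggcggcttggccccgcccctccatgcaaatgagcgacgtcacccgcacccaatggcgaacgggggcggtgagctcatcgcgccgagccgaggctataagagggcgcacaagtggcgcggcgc
FOSB promoter: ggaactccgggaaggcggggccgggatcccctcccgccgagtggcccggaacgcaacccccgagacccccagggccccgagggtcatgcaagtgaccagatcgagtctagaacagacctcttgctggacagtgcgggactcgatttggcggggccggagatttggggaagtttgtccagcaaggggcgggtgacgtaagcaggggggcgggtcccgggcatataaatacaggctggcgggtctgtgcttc

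The comparison of the lines asked which of these gene windows carried more of the mark in BT474 or in SKBR3. The windows of FOSL1, JUNB, JUND and FOSB also held 10, 8, 5 and 4 other protein-coding genes. Those of FOS and JUN held 0, and the rest 1 to 3. Reads counted for a gene are therefore those of its window, not of the gene alone. With edgeR's quasi-likelihood test over 18844 gene windows, 3 of the 10 genes had more H3K4me1 reads in BT474 (FOSL1, JUNB and EGR1) and 6 had more in SKBR3 (FOS, FOSB, JUN, JUND, ATF3 and IER3), with FOSL2 not passing the test. Most windows differed between these lines: 38.2% of all tested windows had more reads in BT474, 34.2% more in SKBR3, and 72.4% differed in either direction, so 9 of 10 called genes stand beside a high background. The median log2 difference (BT474 minus SKBR3) was -0.53 over the 10 genes and 0.11 over all windows. Scaling by total island reads alone moved the median of all windows to 0.26 and left the sign of each of the 10 differences unchanged, with FOSL2 then past the test at 0.28. The replicates are 2 per line and nothing in the labels says that they came from separate cultures, so the p-values measure only the spread between these samples.

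FOS encodes the founding Fos partner of AP-1 (chr14:75745529-75748933, plus strand, hg19, as are all coordinates that follow unless stated). Its window held 140 and 160.0 scaled reads in the SKBR3 replicates and 115 and 113 in the BT474 replicates, with 45.5%, 53.8%, 35.4% and 33.7% of its bases in islands. Both SKBR3 libraries lay above both BT474 libraries. The log2 difference in reads was -0.54 ± 0.072 (SE; edgeR, adjusted p = 0.00272). FOSB, a close relative of FOS (chr19:45971253-45978437, plus strand), held 106 and 121 scaled reads in SKBR3 and 88.4 and 86.0 in BT474, again without overlap. Its difference was -0.52 ± 0.074 (SE; edgeR, adjusted p = 0.00332). The FOSB call was lost with 10 kb flanks, where the difference was -0.054, and with islands of at least the median reads per kb (-0.42).

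FOSL1 encodes FRA1, a Fos protein that lacks the strong activation domain of FOS (chr11:65659520-65668044, minus strand). It went the other way from FOS and FOSB, with 36.7 and 47.9 scaled reads in SKBR3 and 96.7 and 86.6 in BT474. Cover was 15.5% and 17.1% in SKBR3 and 28.4% and 25.8% in BT474, so the lines did not overlap on either measure. The log2 difference was 0.98 ± 0.138 (SE; edgeR, adjusted p = 0.00319). The 2 Mb on either side of the gene differed by 0.83, scaled by total island reads alone, as are all values given for surroundings. On that scale the FOSL1 window differed by 1.12. With the surrounding reads as an offset the FOSL1 difference was 0.29 and no longer passed the test, nor did it with islands of at least the median reads per kb (1.63), so the copy number or broad chromatin of that region cannot be told apart from the gene's own window. FOSL2 encodes FRA2 (chr2:28615315-28640184, plus strand) and held 136 scaled reads in each SKBR3 replicate and 168 and 162 in the BT474 replicates. Its log2 difference was 0.13 ± 0.061 (SE), which did not pass the test (edgeR, adjusted p = 0.112). Its surroundings differed by -0.63 on the log2 scale, and relative to them FOSL2 was higher in BT474 by 0.91, past the test. FOSL2 also passed with each overlapping island counted whole (0.22) and with the stronger islands (0.46), and was -0.029 with 10 kb flanks. The 2 lines also placed the mark differently there: 15.2 kb of the FOSL2 window was in islands of both SKBR3 replicates and neither BT474 replicate, and 12.2 kb the reverse.

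JUN encodes the main Jun partner of AP-1 (chr1:59242517-59249720, minus strand). Its window held 111 and 98.3 scaled reads in SKBR3 against 45.7 and 41.5 in BT474, and cover was 35.5%, 32.7%, 17.0% and 13.2%. The SKBR3 libraries were more than double the BT474 libraries in reads, and the log2 difference was -1.41 ± 0.115 (SE; edgeR, adjusted p = 0.000643). The 2 Mb around JUN differed by -0.088, and with that offset the JUN difference was -1.18 and still passed the test. The width of the window mattered more: with 10 kb flanks the JUN difference was -0.43 and the call was lost, and with 100 kb flanks it was -0.66 and past the test. The longest stretch marked in SKBR3 alone, chr1:59217801-59222000, was 4.2 kb long and centred 29.8 kb downstream of the start.

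JUNB and JUND, which lie on chromosome 19 and encode the other Jun proteins, moved in opposite directions. JUNB (chr19:12902300-12904129, plus strand) held 22.8 and 42.1 scaled reads in SKBR3 and 131 and 133 in BT474. The SKBR3 replicates of JUNB were far apart, with cover of 8.64% and 17.7%, but both lay below the 30.1% and 31.0% of BT474. The log2 difference was 1.89 ± 0.278 (SE; edgeR, adjusted p = 0.00364). Its surroundings differed by 1.71, and relative to them the JUNB difference was 0.33 and did not pass the test. JUND (chr19:18390504-18392432, minus strand), the Jun gene with the steadiest expression in most cells, held 70.3 and 97.7 scaled reads in SKBR3 and 23.4 and 22.1 in BT474. Both SKBR3 libraries were higher, at 25.7% and 34.2% cover against 9.61% and 7.85%. The log2 difference of JUND was -2.02 ± 0.171 (SE; edgeR, adjusted p = 0.000696), and it was -1.12 and still past the test relative to its surroundings. With the stronger islands it was -3.81. An 8.0 kb stretch upstream of JUND, at chr19:18411601-18419600, was in islands of both SKBR3 replicates and of neither BT474 replicate.

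ATF3, a stress and growth factor response gene whose product pairs with Jun proteins, showed the greatest log2 difference of the 10 genes (chr1:212738676-212794119, plus strand). The window held 340 and 350 scaled reads in SKBR3 and 61.9 and 61.7 in BT474. Within each line the replicates nearly coincided, and the lines were over 5 times apart. The log2 difference was -2.62 ± 0.056 (SE; edgeR, adjusted p = 7.15e-05). In SKBR3 the cover of the ATF3 window was higher than that of 98.5% and 98.6% of all genes, whereas in BT474 it was higher than that of 50.6% and 50.3%. Islands of both SKBR3 replicates alone covered 62.4 kb, or 40.1% of the window, and no base was in islands of both BT474 replicates alone. The surrounding reads differed by -1.404 on the log2 scale, and relative to them the ATF3 difference was -1.08 and still passed the test.

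ATF3 has annotated starts more than 40 kb apart, and they differed in the mark. The upstream start at chr1:212738676 lay inside an island in all 4 libraries. That island spanned 14.0 and 16.8 kb in the SKBR3 replicates and 5.4 and 3.0 kb in the BT474 replicates. Within 5 kb of this start SKBR3 held 58.8 and 50.5 scaled reads and BT474 held 14.8 and 13.5. The main (MANE Select) start at chr1:212782103 lay in no island of any library, with 31.2 and 28.5 scaled reads within 5 kb in SKBR3 and 15.5 and 15.8 in BT474.

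EGR1, the EGR factor that growth factors induce most rapidly (chr5:137801168-137804992, plus strand), had the sparsest mark of the 10 genes in SKBR3, and in BT474 it was close to JUND. Its window held 12.5 and 13.5 scaled reads in SKBR3 and 25.9 and 21.4 in BT474, with cover of 4.82% and 5.20% in SKBR3 and 11.4% and 8.28% in BT474. Both BT474 libraries were higher in both measures, and the log2 difference of 0.72 ± 0.225 (SE) only just passed the test (edgeR, adjusted p = 0.0403). The call was lost without BT474 replicate 1 (0.59), without BT474 replicate 2 (0.85) and with a replicate block (0.72). With 10 kb flanks in place of 50 kb the difference was -0.55 and with the stronger islands -0.60, in the other direction and not past the test. The surroundings of EGR1 differed by -0.51, and relative to them the EGR1 difference was 1.38. IER3, a MAP kinase target that affects cell survival (chr6:30710976-30712325, minus strand), had one of the most heavily marked windows, with cover above that of 98.8% and 98.6% of genes in SKBR3 and 91.1% and 88.0% in BT474. It held 256 and 245 scaled reads in SKBR3 and 121 and 115 in BT474, so all 4 libraries were well marked and SKBR3 was about double. The log2 difference was -1.23 ± 0.073 (SE; edgeR, adjusted p = 0.000292), while the surroundings were higher in BT474 by 0.38. With 10 kb flanks the IER3 difference was -0.57 and past the test.

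**Figure D2:**
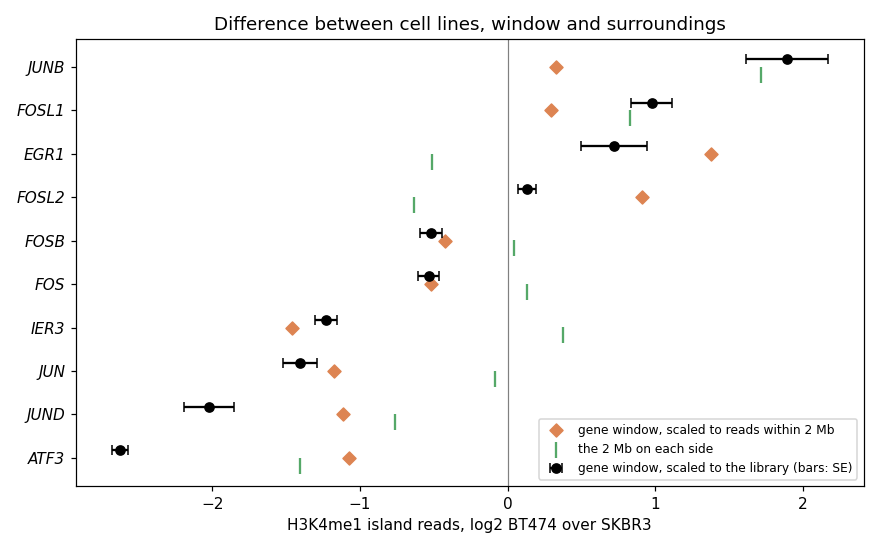
Log2 difference in H3K4me1 reads, BT474 minus SKBR3, for the 10 gene windows, from edgeR with its standard error (black), beside the 2 Mb on each side (green) and the window scaled to those surroundings (orange). The green values are scaled by total island reads alone, on which scale the JUN window was -1.26 and the IER3 window -1.085. FOSL1 and JUNB sit close to their surroundings, whereas JUN, at -1.41 against -0.09, and IER3, at -1.23 against 0.38, sit far from theirs.

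Start sites were examined next, since the mark is often depleted at an active start and raised beside it. The FOSB start was the single one of the 10 that lay in an island in all 4 libraries, beside 4.46% of all protein-coding genes. FOSL1 was in an island in both BT474 replicates. FOS was in an island in BT474 replicate 1 alone. The other 7 starts were in no island. Thus 1 of 10 starts lay in islands of both SKBR3 replicates and 2 of 10 in those of both BT474 replicates, beside 8.54% and 11.6% of all protein-coding genes. For IER3 an island began 77 bp from the start in every library, and for JUNB 100 bp away in both BT474 replicates but 1900 bp away in both SKBR3 replicates.

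Cover by distance from the start showed where the windows of the 10 genes departed from other genes. Within 1 kb the mean cover was 18.4% ± 0.12 (SD, n = 2) in SKBR3, beside 18.5% over all genes, and 41.5% ± 6.55 (SD, n = 2) in BT474, beside 25.3%. From 1 to 5 kb it was 48.8% ± 2.16 in SKBR3 and 44.2% ± 1.61 in BT474 (SD, n = 2 each), beside 26.1% and 28.4%. The cover then fell with distance but stayed above that of all genes. From 25 to 50 kb it was 32.6% ± 4.34 in SKBR3 and 21.0% ± 1.36 in BT474 (SD, n = 2 each), beside 15.4% and 14.6%.

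**Figure D3:**
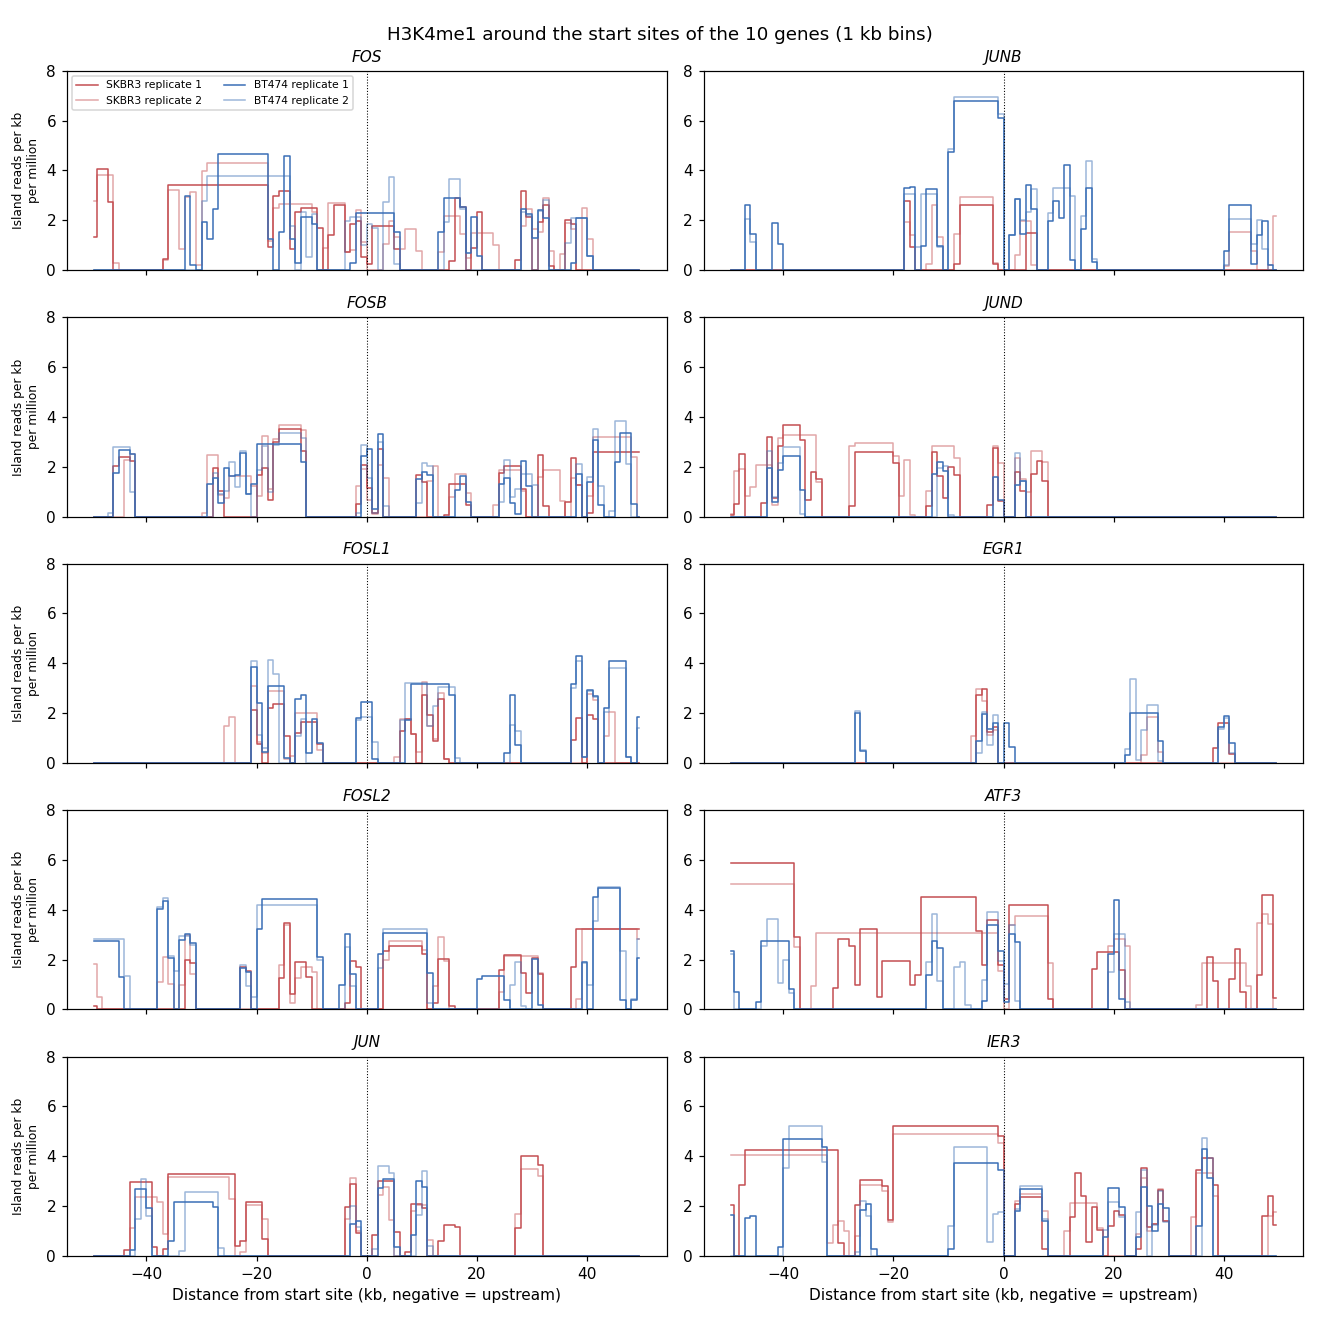
Scaled H3K4me1 island reads per kb (y axis) in 1 kb bins up to 50 kb from the start site (x axis, negative upstream) for the 10 genes, with SKBR3 in red and BT474 in blue and the replicates in dark and pale shades. Flat steps are single islands, whose reads are spread evenly: ATF3 and IER3 carry broad SKBR3 islands upstream, JUNB a tall BT474 island just before the start, and EGR1 few islands.

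The reads within 5 kb of the start were tested across 14479 genes. More reads in BT474 were called at FOSL1 and JUNB and more in SKBR3 at ATF3 and IER3, that is 2 of 10 in each direction beside 29.9% and 20.0% of all start sites (49.9% in either). FOSL1 had no island within 5 kb of its start in either SKBR3 library, where it is listed at 0, and 6.89 and 6.29 scaled reads in BT474 (edgeR, adjusted p = 0.00582). JUNB rose from 9.56 and 13.6 in SKBR3 to 42.4 and 42.7 in BT474, a log2 difference of 1.69 ± 0.177 (SE; edgeR, adjusted p = 0.00591). With the surrounding reads as an offset the JUNB start-site difference was 0.12 and the call was lost, as in the window.

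ATF3 differed by -1.12 ± 0.098 (SE; edgeR, adjusted p = 0.00582), although relative to its surroundings the start was higher in BT474 by 0.56. Within 2 kb of the start the ATF3 difference was -0.16 and not past the test. IER3 held 32.4 and 31.2 scaled reads in SKBR3 and 25.5 and 20.3 in BT474, a difference of -0.66 ± 0.158 (SE; edgeR, adjusted p = 0.0402). The IER3 call was lost without any 1 of the 4 libraries (-0.85 to -0.49), with total island reads alone (-0.48), with the stronger islands (-0.61) and within 2 kb (-1.11). The differences that did not pass were 0.19 for FOS, 0.08 for FOSB, 0.72 for FOSL2, -0.32 for JUN, -1.06 for JUND and -0.49 for EGR1. For FOS, FOSB, JUN, JUND and EGR1 the window differed between the lines while the start did not pass the test. With a replicate block edgeR called none of the 10 start sites, beside 4.71% of all start sites, down from 49.9%. At an unadjusted p under 0.05 in that edgeR fit, 1 was higher in BT474 and 2 in SKBR3. Without BT474 replicate 1 or 2 the line kept 1 library, and the differences were 1.68 and 1.71 for JUNB and -1.12 and -1.11 for ATF3.

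The stretches marked in both replicates of one line and neither of the other ran mostly one way within a gene. IER3 had 27.8 kb marked in SKBR3 alone and 0.6 kb in BT474 alone. JUND had 16.4 kb and 0 kb, JUN 14.0 and 0.2 kb, FOSB 11.6 and 2.0 kb, and FOS 11.0 and 1.8 kb in that order. The reverse held for JUNB, with 0 kb in SKBR3 alone and 12.6 kb in BT474 alone, for FOSL1, with 1.0 and 13.2 kb, and for EGR1, with 0.4 and 2.8 kb. The longest BT474 stretch at FOSL1 (2.8 kb, chr11:65666801-65669600) spanned the start of the gene. At JUNB it was 1.8 kb long and ended 100 bp before the start (chr19:12900401-12902200), in an intron of HOOK2. The longest SKBR3 stretch at IER3 ran 11.0 kb upstream, at chr6:30721601-30732600, in an intron of the non-coding gene HCG20.

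A list of 35 related genes, only some of them immediate early genes, was tested in the same fit. Of these, 7 had more reads in BT474, 18 had more in SKBR3 and 10 did not pass, beside 38.2% and 34.2% of all windows called in those directions. The median log2 difference was -0.27, beside 0.11 over all windows. The other AP-1 family genes gave 4 higher in BT474 and 6 higher in SKBR3 of 13, and the other EGR genes gave 2 and 1 of 3. The serum response factor gene SRF and its ELK partners gave 1 and 2 of 4. The remaining 15 immediate early genes had no call for BT474 and 9 for SKBR3. With the surrounding reads as an offset the 35 genes gave 11 calls in each direction, beside 36.6% for BT474 and 28.3% for SKBR3 over all windows. The 15 remaining immediate early genes then gave 4 and 4 calls, so their lean to SKBR3 was not kept. The other AP-1 family genes gave 5 and 4, the other EGR genes 2 and 1, and SRF with its ELK partners 0 and 2. The extremes among the called genes were EGR3 (1.57), ATF2 (0.95) and SRF (0.69) for BT474, and CCN1 (-2.44), BHLHE40 (-2.42) and ELK3 (-2.35) for SKBR3. With the offset ATF2 (0.33) and SRF (0.092) no longer passed the test, while EGR3, CCN1, BHLHE40 and ELK3 kept their calls.

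HER2 peaks in the 10 windows were few in SKBR3 and more numerous in BT474, most of all after EGF. SKBR3 had 1 peak after vehicle (at FOS) and 1 after EGF (at JUN). BT474 had 6 after vehicle and 18 after EGF. Per Mb of window this was 0.896 in each SKBR3 list, 5.38 in BT474 after vehicle (exact Poisson 95% interval 1.97 to 11.7) and 16.1 in BT474 after EGF (9.56 to 25.5). Over the windows of all protein-coding genes the values were 0.911 and 0.910 in SKBR3 and 3.10 and 10.6 in BT474, so the intervals of the 10 genes in BT474 include the value of all genes after both treatments. The intervals cover counting error only, the read depth behind the lists is unknown, and with 1 list per condition there was no test.

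By gene, BT474 went from 0 peaks after vehicle to 4 after EGF at FOS, from 2 to 3 at FOSB, from 1 to 2 at FOSL1, from 1 to 2 at JUN, from 1 to 2 at JUNB, from 0 to 1 at EGR1 and from 1 to 4 at ATF3. FOSL2, JUND and IER3 had no HER2 peak in any list. After EGF 7 of the 10 windows thus gained peaks, beside 63.6% of all protein-coding genes and 57.9% of the 13892 genes no longer than ATF3. None lost a peak, beside 1.07% and 1.0%. At least 1 peak was present after EGF in BT474 in 7 of 10 windows, beside 72.7% of all genes and 67.2% of those no longer than ATF3, and after vehicle in 5 of 10, beside 35.5% and 28.7%. In SKBR3 1 of 10 windows held a peak after vehicle, beside 12.2% and 9.67%, and 1 of 10 after EGF, beside 13.0% and 10.6%. JUN was the 1 gene that gained a peak there (9.11% and 7.7% of genes) and FOS the 1 that lost its peak (8.56% and 6.88%). The shares after EGF were near the background in both lines. Each of the 6 BT474 vehicle peaks overlapped a BT474 EGF peak. The study reports that most HER2 sites of untreated BT474 cells were also bound after EGF. This overlap is therefore not particular to these genes, and the share over all BT474 vehicle peaks was not counted.

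**Figure D4:**
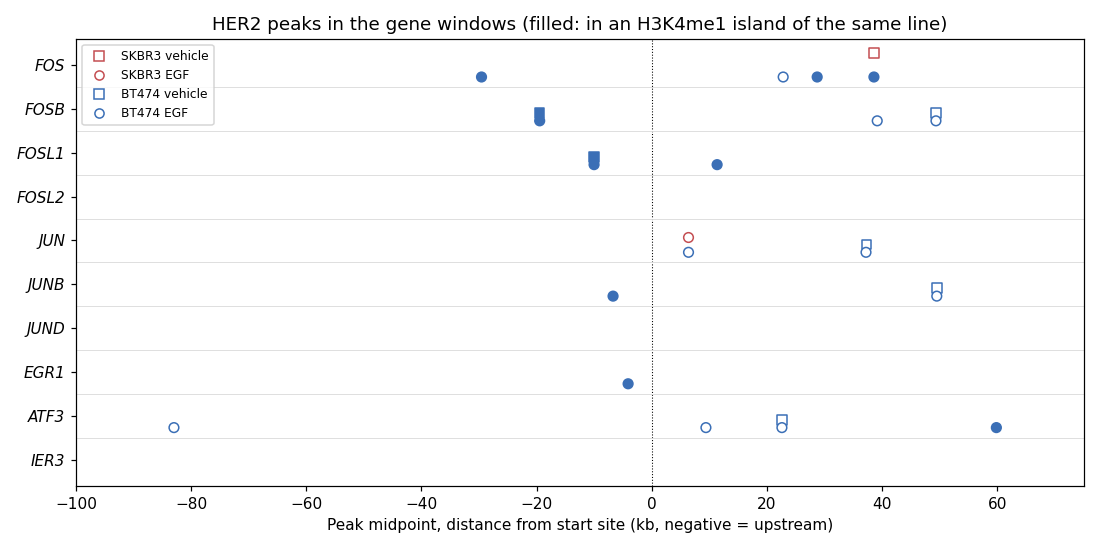
HER2 peaks in the 10 gene windows by distance of the peak midpoint from the start site (kb, x axis, negative upstream), with squares for vehicle and circles for EGF, and filled symbols for peaks in an H3K4me1 island of the same line. The BT474 EGF list gives 18 peaks over 7 genes, the 2 SKBR3 lists give 1 peak each, and FOSL2, JUND and IER3 have none.

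The 26 peaks merged into 18 distinct sites, 2 of which were shared by the lines. At JUN, a site 6.4 kb downstream of the start was listed after EGF in both lines and after vehicle in neither. The study reports that most SKBR3 EGF peaks also occurred in BT474 and that few SKBR3 sites were shared between treatments. Such sharing is therefore not particular to JUN. The JUN site lies past the end of the main JUN transcript, in an intron of a longer annotated JUN transcript. The BT474 peak (chr1:59243154-59243502) had a score of 255 and ranked 1256 in its list, in the top 4.28%, and the SKBR3 peak (chr1:59243256-59243464) had a score of 175 beside a list median of 129. The score of 255 was the highest of the 26 peaks in the 10 windows, across lists of different depth. The site lay in no H3K4me1 island of any library. It also held the single match to TGANTCA among the 18 HER2 sites, at chr1:59243236 in the BT474 peak, outside the narrower SKBR3 peak. The match read TGAATCA, with A as its middle base, so it was neither of the AP-1 sites TGACTCA and TGAGTCA.

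At FOS, a site 38.6 kb downstream of the start was listed in SKBR3 after vehicle (chr14:75784036-75784235, score 13.5, beside a list median of 35.0) and in BT474 after EGF (chr14:75783990-75784266, score 42.5, beside 56.0). It lay in islands of both BT474 replicates and of neither SKBR3 replicate. The site nearest to any main (MANE Select) start was at EGR1 (chr5:137796954-137797179), listed in BT474 after EGF alone. The EGR1 site lay in an island in all 4 libraries, with its near edge 3.99 kb upstream. It had a score of 32.5, below the list median of 56.0. The BT474 EGF peak nearest to the FOS start (chr14:75768257-75768473, score 38.5) was 22.7 kb downstream between genes. The one nearest to the main ATF3 start (chr1:212791405-212791630, score 38) was 9.30 kb downstream in a coding exon of ATF3. That ATF3 peak was nearer to another annotated start of the gene, at chr1:212788520. The CGTNTGC core was present in 3 of the 18 sites: at FOSL1, 9.90 kb upstream (on the minus strand), at JUNB, 49.5 kb downstream in a coding exon of MAST1, and at ATF3, 22.6 kb downstream. All 3 were listed in BT474 after both treatments. The share of all listed HER2 peaks that hold the core or a TGANTCA match was not counted, so neither count has a background here. The sequences of the JUN site, of the FOS and EGR1 sites and of these 3 sites are printed on the plus strand of hg19, 5′ to 3′. The TGANTCA match or the motif core is in capitals.
JUN, last 300 bases of the BT474 EGF peak, chr1:59243203-59243502: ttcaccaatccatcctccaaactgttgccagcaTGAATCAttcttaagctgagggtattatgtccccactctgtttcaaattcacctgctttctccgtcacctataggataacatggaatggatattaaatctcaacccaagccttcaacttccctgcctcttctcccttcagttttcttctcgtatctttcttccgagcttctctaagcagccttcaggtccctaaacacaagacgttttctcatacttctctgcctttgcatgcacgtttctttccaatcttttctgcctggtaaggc
FOS, SKBR3 vehicle peak, chr14:75784036-75784235: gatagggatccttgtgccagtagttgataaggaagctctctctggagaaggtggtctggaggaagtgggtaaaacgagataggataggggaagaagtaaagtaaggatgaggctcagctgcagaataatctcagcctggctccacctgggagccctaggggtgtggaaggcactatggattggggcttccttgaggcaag
EGR1, BT474 EGF peak, chr5:137796954-137797179: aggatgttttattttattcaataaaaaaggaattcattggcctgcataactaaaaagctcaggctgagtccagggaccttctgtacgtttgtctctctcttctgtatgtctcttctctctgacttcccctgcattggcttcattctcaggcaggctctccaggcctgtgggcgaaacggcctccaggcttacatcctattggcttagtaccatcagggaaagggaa
FOSL1, BT474 vehicle peak, chr11:65677760-65678005: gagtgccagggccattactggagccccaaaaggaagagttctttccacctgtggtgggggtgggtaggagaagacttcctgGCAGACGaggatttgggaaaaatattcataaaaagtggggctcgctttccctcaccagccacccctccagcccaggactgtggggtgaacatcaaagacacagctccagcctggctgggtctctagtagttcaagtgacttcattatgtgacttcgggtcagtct
JUNB, BT474 vehicle peak, chr19:12951710-12951935: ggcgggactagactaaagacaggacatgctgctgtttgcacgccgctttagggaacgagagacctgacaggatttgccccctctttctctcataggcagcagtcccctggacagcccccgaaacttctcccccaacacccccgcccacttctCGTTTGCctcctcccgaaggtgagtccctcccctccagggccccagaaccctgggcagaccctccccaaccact
ATF3, BT474 vehicle peak, chr1:212804636-212804835: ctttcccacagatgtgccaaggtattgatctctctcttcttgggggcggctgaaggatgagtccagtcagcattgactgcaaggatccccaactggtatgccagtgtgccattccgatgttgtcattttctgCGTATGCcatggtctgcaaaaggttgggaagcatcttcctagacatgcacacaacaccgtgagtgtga

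The remaining sites were all in BT474. The 6 vehicle peaks scored 19.0 to 62.0, all below their list median of 64.5. At FOSB, the site in an ERCC1 intron scored 33.0 after vehicle and 115 after EGF, and a site in a VASP intron scored 56.5 and 139. At FOSL1, the upstream site scored 61.0 and 111. At JUNB, the MAST1 site scored 45.0 and 58.0, and the ATF3 site 22.6 kb downstream scored 19.0 and 47.5. The other JUN site, 37.3 kb downstream, went from 62 to 37. Hence 5 of the 6 peaks listed after both treatments had a higher score after EGF, although scores of different lists depend on each library's depth and were not tested. The same share over all BT474 peaks listed after both treatments was not counted. A JUNB site in an intron of HOOK2, with its near edge 6.56 kb upstream (chr19:12895427-12895740), was listed after EGF alone with a score of 72.5, and was in an island in all 4 libraries.

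HER2 sites and the mark coincided in BT474 in part. After EGF 9 of the 18 peaks lay in an island of either BT474 replicate, beside 17.4% of the peaks in all protein-coding windows. Islands of either BT474 replicate covered 27.4% of the 10 windows and 15.6% of all windows, so the windows of these genes offered more marked bases. By gene these were 3 of 4 peaks at FOS, 2 of 2 at FOSL1, 1 of 1 at EGR1, 1 of 3 at FOSB, 1 of 2 at JUNB, 1 of 4 at ATF3 and 0 of 2 at JUN. After vehicle it was 2 of 6, at FOSB and FOSL1, beside 18.9%. In SKBR3 neither the vehicle nor the EGF peak lay in an SKBR3 island, beside 23.9% and 21.3%, although islands covered 43.3% of the 10 windows in that line. With 1 list per condition these shares were not tested.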

How the data were processed

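HER2 ChIP-exo and H3K4me1 ChIP-seq lists from SKBR3 and BT474 were used in hg19. The submitters' processing notes name BWA 0.5.9, MACS 1.4.1 and SICER 1.1, whereas the methods of the study name bowtie2 for alignment and MACS2 for the HER2 peaks, and which of these made the deposited lists was not settled. The HER2 files hold peaks with the caller's score, deposited by the authors, 1 list per condition. The H3K4me1 files hold read counts per island, deposited by the authors for each replicate.

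The genes, the list of 35 related genes, markers and tests were chosen with earlier results of these data known. All 10 genes are named, as are the nearest peaks within their windows and, of the 35, the called genes with the 3 highest and 3 lowest differences. Genes came from GENCODE 44 lifted to GRCh37, starts from MANE Select. Island counts were shared out by base overlap over the window (50 kb flanks, or 5 kb each side of the start) of every protein-coding gene, rounded, filtered with filterByExpr, scaled by TMM on total island reads and tested with edgeR 4.0.16 (R 4.3.3; quasi-likelihood, two-sided, Benjamini-Hochberg over all windows, threshold 0.05). DESeq2 1.42.0 was an alternative. The edgeR script was tested on simulated data. HER2 peaks were counted on an overlap of 1 bp. Equal replicate numbers did not pair the lines (correlation of deviations -0.01 over 18480 windows). Island totals leave out reads outside islands, so a library's full depth is unknown.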

Additional observations from a re-analysis of the deposited data

Results flagged for a closer look

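The FOS window moved in opposite directions with EGF in the HER2 lists of the lines: BT474 went from 0 peaks to 4, a gain of 4, while SKBR3 went from 1 peak to 0. Over all protein-coding genes 63.6% had more peaks after EGF in BT474 and 8.56% had fewer in SKBR3. The share of genes that did both was not counted. The SKBR3 peak at FOS scored 13.5, beside a list median of 35.0, and ranked 2570 of 2596. There was 1 list per condition, so the difference between the lines was not tested.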

How the results depend on the processing

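Over the 14 alternatives run for the gene windows, 2 to 4 genes were called for BT474 (3 as reported) and 4 to 6 for SKBR3 (6 as reported). Of the other differences and calls, 218 kept direction and side of the threshold, 25 lost the call, 11 gained one and 11 turned direction. The genes behind the BT474 count of the gene windows changed with the setting. With the 2 Mb offset they were FOSL2 and EGR1, and with islands of at least the median reads per kb FOSL2 and JUNB. With a replicate block they were FOSL1 and JUNB. The cause of such changes was not tested except where the setting itself shows it. In the gene windows FOSL2 was -0.029 with 10 kb flanks, and EGR1 was -0.60 with islands of at least the median reads per kb and -0.55 with 10 kb flanks. At the start sites FOS was -0.26 when each island counted whole, -0.18 with the stronger islands, -0.036 without SKBR3 replicate 2 (0.494 without SKBR3 replicate 1) and -0.49 within 10 kb. With the reads within 2 Mb as an offset, the start-site differences were 0.077 for JUN, 0.20 for EGR1 and 0.56 for ATF3, and EGR1 was 0.77 within 2 kb. None of these reversals passed the test except FOS within 10 kb and ATF3.

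Start sites called for BT474 were 2, but 0 with a replicate block and 0 to 3 with 1 library left out. Those called for SKBR3 were 2, but 1 with total island reads alone, with stronger islands or with the 2 Mb offset, 0 with a replicate block, 0 within 2 kb, 4 within 10 kb, and 0 to 2 with 1 library left out. Over all start sites, the replicate block left 1.74% called for BT474 and 2.97% for SKBR3. Counts with 1 library left out rest on 1 sample in that line. The equal replicate numbers did not pair the lines. The median cover of 37.04% in SKBR3 became 23.9% with stronger islands, 37.7% with 10 kb flanks and 29.2% with 100 kb flanks, and that of 28.0% in BT474 became 16.4% and 22.2% with stronger islands and 100 kb flanks. Starts in islands (1 in SKBR3, 2 in BT474) were 0 and 1 with stronger islands, 2 and 5 for any annotated start, and 5 and 6 for an island within 1 kb.

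HER2 counts depended on the list's length and the flanks. The vehicle SKBR3 count of 1 was 0 among peaks above the list's median score, 0 among as many top peaks as in the shortest list, 0 with 10 kb flanks and 2 with 100 kb flanks. The EGF SKBR3 count of 1 was 2 with 100 kb flanks. In BT474 the vehicle count of 6 was 0, 0 and 1 and the EGF count of 18 was 7, 1 and 6 under the first 3 of these settings, and the EGF count was 29 with 100 kb flanks. Vehicle BT474 peaks in islands of both replicates were 1 rather than 2.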

Other observations

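The genes without a HER2 peak in their windows differed in how far away the nearest peak was. In BT474 after EGF the nearest edge was 81.6 kb from the FOSL2 start, 64.8 kb from the JUND start and 111 kb from the IER3 start. The median over the 10 genes was 14.6 kb, beside 35.2 kb over all protein-coding genes. In BT474 after vehicle the medians were 76.8 kb and 125 kb. In SKBR3 they were 198 kb and 530.3 kb after vehicle, and 315 kb and 457 kb after EGF. For JUNB, the nearest SKBR3 peak was 1857 kb away after vehicle and 2018 kb away after EGF. These distances are descriptions with 1 list per condition.

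Annotated starts other than the main one differed in the mark as well. For FOS, 7 starts are annotated, of which 2 and 0 lay in islands in the SKBR3 replicates and 7 and 4 in the BT474 replicates. For ATF3, 4 of 7 lay in islands in each SKBR3 replicate and 1 of 7 in each BT474 replicate. For FOSL1 all 3 annotated starts lay in islands in both BT474 replicates and none in SKBR3. For JUN, JUNB, JUND, EGR1 and IER3 no annotated start lay in an island of any library.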
